A study of Mus musculus with 4 samples.

Results

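Integrins are the adhesion receptors with which T cells hold on to other cells and to matrix, and 10 integrin subunit genes of T cells were followed in mouse induced regulatory T (iTreg) cells grown with or without added iron. The genes were Itgae, Itgb7, Itga4, Itgal, Itgb1, Itgb2, Itgav, Itgb3, Itga1 and Itgb8, taken by name from a list of integrins of T cells, and all 10 matched 1 row each among the 47729 gene rows of the count table. Naive CD4 T cells of C57BL/6 mice, from the spleen per the labels and from spleen and lymph node per the methods, were activated in vitro through CD3 and CD28. Both groups were grown with 5 ng/mL TGF-β and 100 U/mL IL-2, and 5 µg/mL each of antibodies against IFN-γ and IL-4 were present. Cells of the FeSO4 group received 50 µM ferrous sulfate for 4 days and cells of the Mock group received PBS, with 2 libraries per group that came, per the methods, from independent experiments. These were cultured cells of wild-type mice, so adhesion to gut epithelium or vessel wall was not part of the system.

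Each integrin is a heterodimer of an α and a β chain that pass the membrane together, and the pair decides the ligand. αE (Itgae, CD103) pairs with β7 (Itgb7) and binds E-cadherin on epithelium, and its gene is a known target of TGF-β in T cells. α4 (Itga4) pairs with β7 to bind MAdCAM-1 of gut vessels and with β1 (Itgb1) to bind VCAM-1 and fibronectin. αL (Itgal) and β2 (Itgb2) form LFA-1, which binds ICAMs during contact with antigen-presenting cells. αV (Itgav) with β3 (Itgb3) binds vitronectin and related ligands, αV with β8 (Itgb8) releases active TGF-β from its latent complex, and α1 (Itga1) with β1 binds collagen. Inside the cell, talin, kindlins and the small GTPase Rap1 switch these receptors to their high-affinity state.

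The gene rows held 35183187 to 40859178 reads per library, and the libraries of a group differed from each other by more than counting noise, so all 4 were kept as separate samples. The biological coefficient of variation was 8.24%, and 13732 genes passed the filter on low counts. T cell markers were present in every library at a summed level of 5620 to 6141 CPM, with Il2ra, the IL-2 receptor α chain, the most counted. CPM are counts per 1000000 counts of the scaled library. The NK cell markers Ncr1 and Klrb1c and the dendritic cell marker Clec9a were at 0 in all 4 libraries, the B cell marker Ms4a1 had at most 1 count, and the 5 mast cell and basophil markers never exceeded 4 counts. Other markers of NK, dendritic and B cells were present, up to 165 counts for Klrd1, 208 for Zbtb46, 107 for Cd79a and 10177 for Ighm. Reads of epithelium, stroma and myeloid cells stood out in Mock replicate 1, where Krt8 had 784 counts against 5, 4 and 16 in Mock replicate 2, FeSO4 replicate 1 and FeSO4 replicate 2. In the same order, Epcam had 231, 67, 37 and 41 counts, Col3a1 68, 1, 0 and 1, and Lyz2 164, 8, 0 and 0.

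Of the 10 integrin genes, 9 could be tested and 2 fell in FeSO4, Itgae and Itgb7, which together encode the E-cadherin receptor. None of the 9 rose at an adjusted p under 0.05. Among all 13732 genes tested, 9.17% fell and 10.9% rose at that threshold by edgeR's quasi-likelihood test with Benjamini-Hochberg adjustment. At an unadjusted p under 0.05, 2 of the 9 were lower and 1 was higher, against 15.2 and 17.1% of all tested genes. DESeq2 called 2 lower and 1 higher by its adjusted p, against 7.94 and 10.6% of genes it gave one. limma-voom called 2 lower and 0 higher, against 8.69 and 10.6% of all tested genes. In 6 of the 9 genes the FeSO4 and Mock libraries did not overlap, 2 lower and 4 higher, against 59.5% of all tested genes. The median log2 fold change of the 9 was 0.05, beside a median of essentially 0 (-0.000524) over all tested genes. Added over all 10 genes, integrin reads came to 2629 and 2702 CPM in Mock, against 2564 and 2547 CPM in FeSO4.

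**Figure D1:**
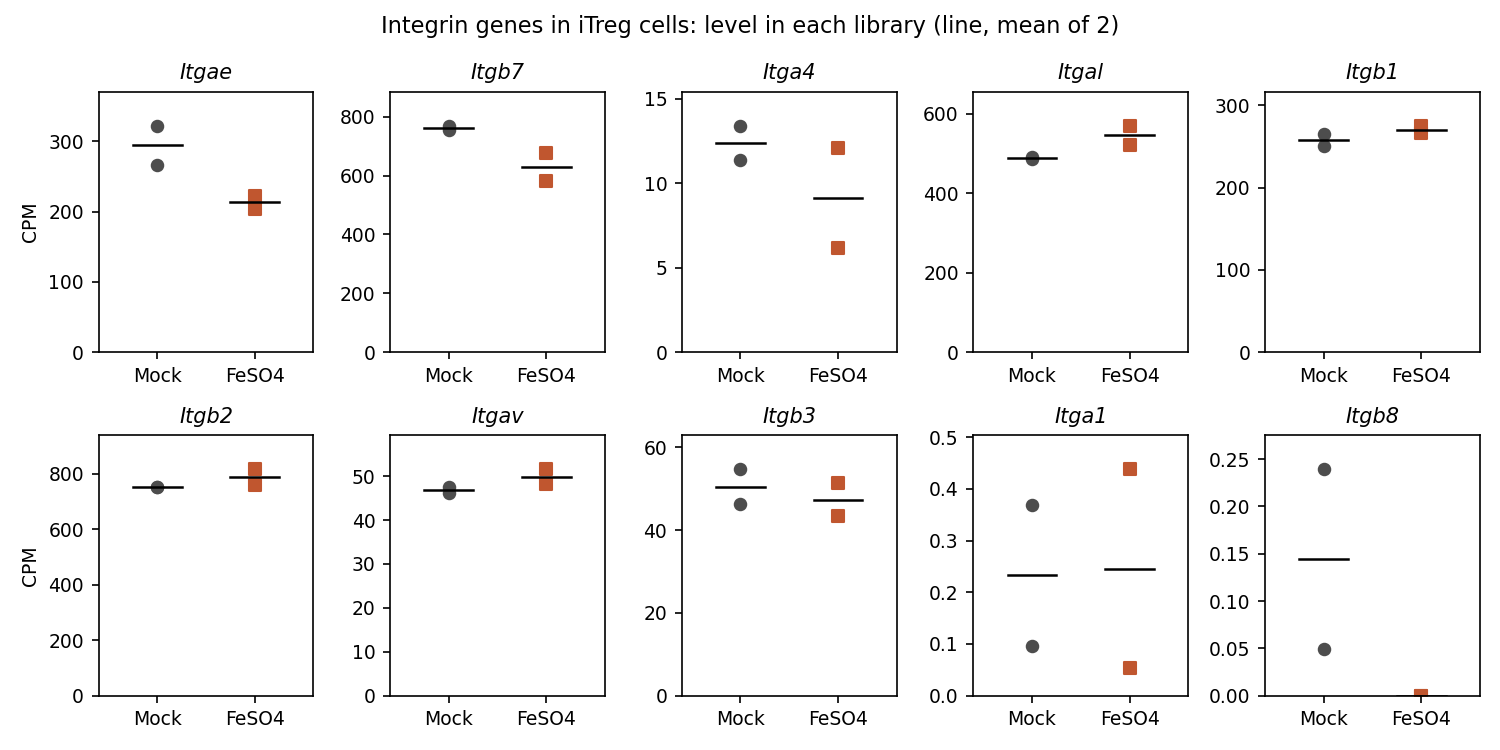
Level of each integrin gene in every library, in CPM on linear axes that start at 0 and differ between panels, with points for the 2 libraries of each group and a line at their mean. Itgae and Itgb7 are lower in each FeSO4 library than in either Mock library, while Itga4 and Itgb3 overlap between groups.

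The windows just upstream of 3 of these genes are shown because Itgb7 fell while Itgb1, the other partner of α4, was not called, and Itga4 differed between the FeSO4 libraries. Each is the 250 bases before a RefSeq transcription start (GRCm38.p6), written 5′ to 3′ on the gene's strand, and capitals mark matches, on either strand, to the 5 motifs searched. The Itgb7 window is chr15:102231936-102232185 (minus strand), the Itga4 window chr2:79255176-79255425 (plus strand) and the Itgb1 window chr8:128685404-128685653 (plus strand). The RefSeq start used for Itgb7 lies inside the span of the gene.
Itgb7: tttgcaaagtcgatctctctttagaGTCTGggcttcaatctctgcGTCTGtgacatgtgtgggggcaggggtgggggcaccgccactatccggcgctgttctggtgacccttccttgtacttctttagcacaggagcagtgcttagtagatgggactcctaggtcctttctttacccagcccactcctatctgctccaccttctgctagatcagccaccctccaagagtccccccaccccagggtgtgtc
Itga4: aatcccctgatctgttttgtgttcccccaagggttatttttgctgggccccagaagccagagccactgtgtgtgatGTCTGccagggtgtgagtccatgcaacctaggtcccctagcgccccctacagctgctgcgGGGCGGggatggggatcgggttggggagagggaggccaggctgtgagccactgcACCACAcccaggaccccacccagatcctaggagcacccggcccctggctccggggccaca
Itgb1: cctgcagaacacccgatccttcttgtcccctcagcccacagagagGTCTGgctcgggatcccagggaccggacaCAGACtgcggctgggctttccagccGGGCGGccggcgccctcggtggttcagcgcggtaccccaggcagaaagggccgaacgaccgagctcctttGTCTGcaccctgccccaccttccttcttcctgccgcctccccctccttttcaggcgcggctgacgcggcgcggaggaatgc

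The motifs were CAGAC, the SMAD element, TGTGGT for RUNX factors, ACGTG, the core of the hypoxia response element, TGANTCA for AP-1 and GGGCGG, the GC box. Over 32851 RefSeq windows of this length, 42.2% held CAGAC, 14% TGTGGT, 16.6% ACGTG, 6.75% TGANTCA and 32.7% GGGCGG on at least 1 strand. Itgb7 held 2 CAGAC matches, Itgb1 held 3 with 1 GC box, and Itga4 held 1 CAGAC, 1 TGTGGT and 1 GC box. In the Itgb7 window both matches lie far from the start, 225 to 221 and 205 to 201 bases before it, and the TGTGGT match of Itga4 is 60 to 55 bases before it. Windows were also searched for Itgav, which held none of the 5 motifs, and for Itga1 and Itgb8, which held 1 CAGAC each. As for Itgb7, the RefSeq start used for Itgav lies inside the span of the gene. None of these 6 windows held ACGTG or TGANTCA.

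Itgae (ENSMUSG00000005947, chr11:73090505-73147449, RefSeq GRCm38.p6, plus strand) had the largest fall of the called members. Its level was 266 and 322 CPM in Mock replicates 1 and 2 and 222 and 204 CPM in FeSO4 replicates 1 and 2, from 10809, 13458, 7598 and 7559 reads. Both FeSO4 libraries were below both Mock libraries, although Mock replicate 2 stood well above Mock replicate 1. The mean was 294 ± 39.2 CPM in Mock against 213 ± 12.4 CPM in FeSO4 (SD, n = 2 each). This is a log2 fold change of -0.47 ± 0.08 (SE) at an adjusted p of 0.000608. Expressed as a percentage, Itgae fell by 27.6%. The log2 fold change lay between -0.60 and -0.32 when any 1 library was left out, and Itgae was called each time. Without the filter on low counts its adjusted p was 0.0676. In bulk RNA, fewer cells that express a gene and less RNA of it per cell cannot be told apart. Foxp3, the lineage factor of regulatory T cells and 1 of the T cell markers, was lower in the same libraries, at 587 and 693 CPM in Mock, and at 376 and 472 CPM in FeSO4 (log2 fold change -0.59 ± 0.09, SE, adjusted p = 0.000223), and the part that the share of Foxp3-expressing cells has in the Itgae result was not tested. Of the 10 T cell markers, 5 were called higher, 1 (Foxp3) lower and 4 not called, where 10.9% of all genes were called higher and 9.17% lower. Among the 5, the call was lost in 5 of 13 alternatives for Cd5 and in 6 of 13 for Trac. The call of Foxp3 was lost with low-count genes kept in the test (adjusted p = 0.067).

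Itgb7 (ENSMUSG00000001281, chr15:102215994-102233405, minus strand), the β chain shared by the E-cadherin and the MAdCAM-1 receptor, was at 769 and 754 CPM in Mock, and at 583 and 677 CPM in FeSO4. The Mock libraries were close together and both FeSO4 libraries lay below them, with FeSO4 replicate 1 the lowest. Means were 761 ± 10.9 and 630 ± 67.0 CPM, respectively (SD, n = 2 each), and this is a log2 fold change of -0.27 ± 0.07 (SE) at an adjusted p of 0.0098, so that Itgb7 fell by 17.2%. This call rested on FeSO4 replicate 1. Without that library the log2 fold change was -0.16 and the adjusted p 0.228, and with low-count genes kept in the test the adjusted p was 0.125.

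Itga4 (ENSMUSG00000027009, chr2:79255426-79333114, plus strand), the α chain of the gut-homing integrin, was at 11.4 and 13.4 CPM in Mock, and at 6.19 and 12.1 CPM in FeSO4. FeSO4 replicate 1 was far below the other 3 libraries and FeSO4 replicate 2 lay between the Mock libraries, so the groups overlapped. Means were 12.4 ± 1.43 and 9.13 ± 4.16 CPM, and the log2 fold change of -0.43 ± 0.21 (SE) was not called (adjusted p = 0.177). Without FeSO4 replicate 2 it was -0.998 with an adjusted p of 0.00105, and without FeSO4 replicate 1 it was -0.03 with an adjusted p of 0.944. Exons of Itga4 share 1124 bases with Cerkl on the other strand, and the strand setting of the counting was not given in the sources used here.

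Itgal (ENSMUSG00000030830, chr7:127296139-127335137, plus strand), the α chain of LFA-1, went the other way. It was at 486 and 491 CPM in Mock, and at 570 and 522 CPM in FeSO4, and both FeSO4 libraries were above both Mock libraries. The log2 fold change was 0.16 ± 0.06 (SE) and the adjusted p 0.0794, which missed the threshold in the quasi-likelihood test, while DESeq2 gave an adjusted p of 0.0476 and a fit with the replicate number as a block called it higher at 0.0335. Without FeSO4 replicate 1 the log2 fold change was 0.10 (adjusted p = 0.518), and with library size only it was 0.09 (adjusted p = 0.293). Itgb2 (ENSMUSG00000000290, chr10:77530329-77565708, plus strand), the β chain of LFA-1, was at 752 and 754 CPM in Mock, and at 816 and 761 CPM in FeSO4. The groups did not overlap, but the gap between Mock replicate 2 and FeSO4 replicate 2 was small beside the difference between the FeSO4 libraries, and the log2 fold change was 0.07 ± 0.06 (SE, adjusted p = 0.478).

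Itgb1 (ENSMUSG00000025809, chr8:128685654-128733579, plus strand), the β chain of the fibronectin and collagen receptors, was at 251 and 265 CPM in Mock, and at 275 and 266 CPM in FeSO4. Its FeSO4 libraries were higher by a narrow margin, with a log2 fold change of 0.07 ± 0.06 (SE) at an adjusted p of 0.489. With library size only the log2 fold change was 0.0026 for Itgb1 and 0.00122 for Itgb2, and with each library left out it was 0.02 to 0.11 for Itgb1 and 0.02 to 0.12 for Itgb2. Itgav (ENSMUSG00000027087, chr2:83722303-83806917, plus strand) was at 46.1 and 47.6 CPM in Mock, and at 48.2 and 51.5 CPM in FeSO4, again without overlap and with a log2 fold change of 0.09 ± 0.08 (SE) at an adjusted p of 0.481. Exons of Itgav share 634 bases with Gm13684 on the other strand. Itgb3 (ENSMUSG00000020689, chr11:104608000-104670476, plus strand) was at 46.3 and 54.7 CPM in Mock, and at 43.5 and 51.3 CPM in FeSO4. In both groups the second library was the higher, the groups overlapped, and the log2 fold change was -0.09 ± 0.10 (SE, adjusted p = 0.576). Neither gene of this pair was called.

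The remaining 2 genes were near the limit of detection. Itga1 (ENSMUSG00000042284, chr13:114958079-115101964, minus strand), the collagen receptor chain of tissue-resident T cells, had 15 and 4 reads in Mock and 15 and 2 reads in FeSO4, and the first library of each group held most of them. Its log2 fold change of 0.05 ± 0.89 (SE, adjusted p = 0.981) leaves the direction undetermined. Itgb8 (ENSMUSG00000025321, chr12:119162803-119238276, minus strand), the β chain that acts on latent TGF-β, had 2 and 10 reads in Mock and 0 in both FeSO4 libraries, and it did not pass the filter on low counts. A count of 0 allowed a level of up to 0.0876 CPM in FeSO4 replicate 1 and 0.081 CPM in FeSO4 replicate 2, from 3 counts of the library total and for counting error only. Mock replicate 2, at 0.239 CPM, was above both limits and Mock replicate 1, at 0.0493 CPM, was below them, and Itgb8 was not tested.

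**Figure D2:**
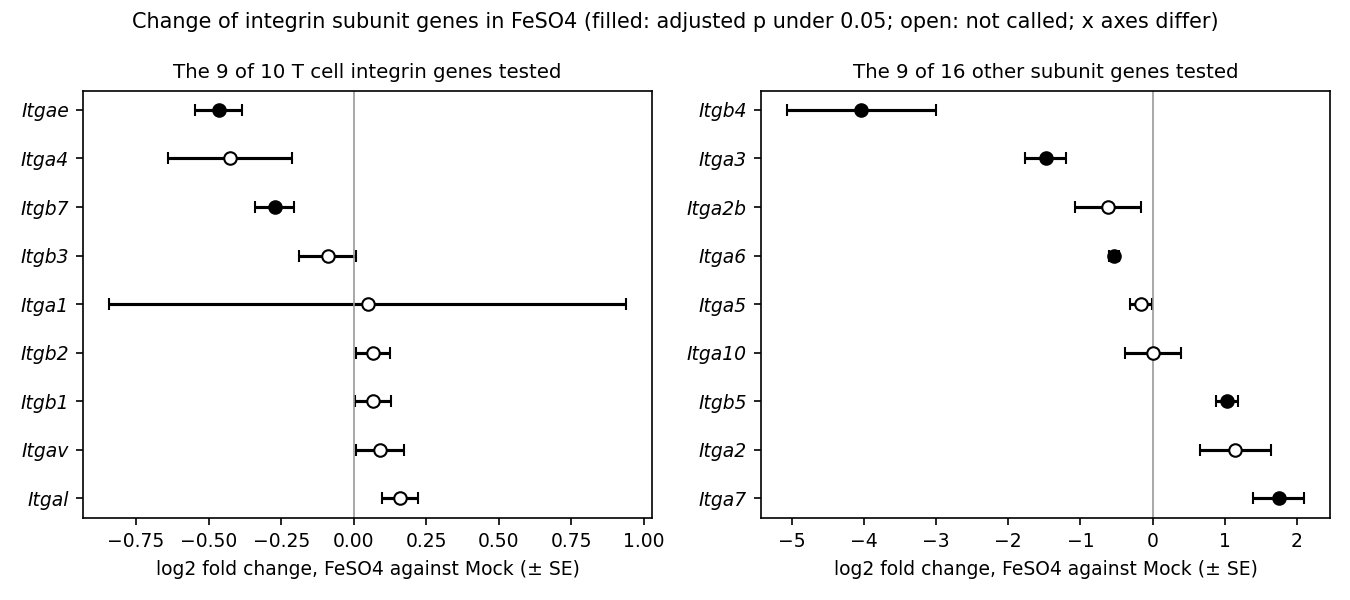
Log2 fold change of integrin subunit genes in FeSO4 against Mock with its SE as the bar, for the tested genes followed here in 1 panel and the other tested subunits in the other, on x axes that differ. Filled points have an adjusted p under 0.05; Itgae and Itgb7 are the filled points of the first panel, at -0.47 and -0.27.

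Levels of different genes were compared per kilobase of merged exon (CPM/kb, GENCODE M1 lengths), as a description. In Mock, Itgb7 came first at 278 ± 3.96 CPM/kb and Itgb2 second at 247 ± 0.296 CPM/kb (SD, n = 2). In FeSO4 the order turned, with 230 ± 24.4 CPM/kb for Itgb7 and 258 ± 12.6 CPM/kb for Itgb2. Itgb7 was the higher of the pair in 2 of 4 libraries, so these neighbours could not be ordered over the series, and with coding length in place of exon length Itgb2 came first in all 4. Itgal followed at 76.6 ± 0.597 CPM/kb in Mock and 85.6 ± 5.26 CPM/kb in FeSO4, below Itgb2 and above Itgae in every library. Itgae was at 64.2 ± 8.55 CPM/kb in Mock and 46.5 ± 2.71 CPM/kb in FeSO4, and Itgb1 at 63.3 ± 2.48 and 66.3 ± 1.5 CPM/kb. Itgae exceeded Itgb1 in 1 of 4 libraries only, Mock replicate 2, and in none with coding length. Itgb3 (8.63 ± 1.02 CPM/kb in Mock), Itgav (4.36 ± 0.0937) and Itga4 (0.885 ± 0.103) came next and kept that order in all 4 libraries.

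**Figure D3:**
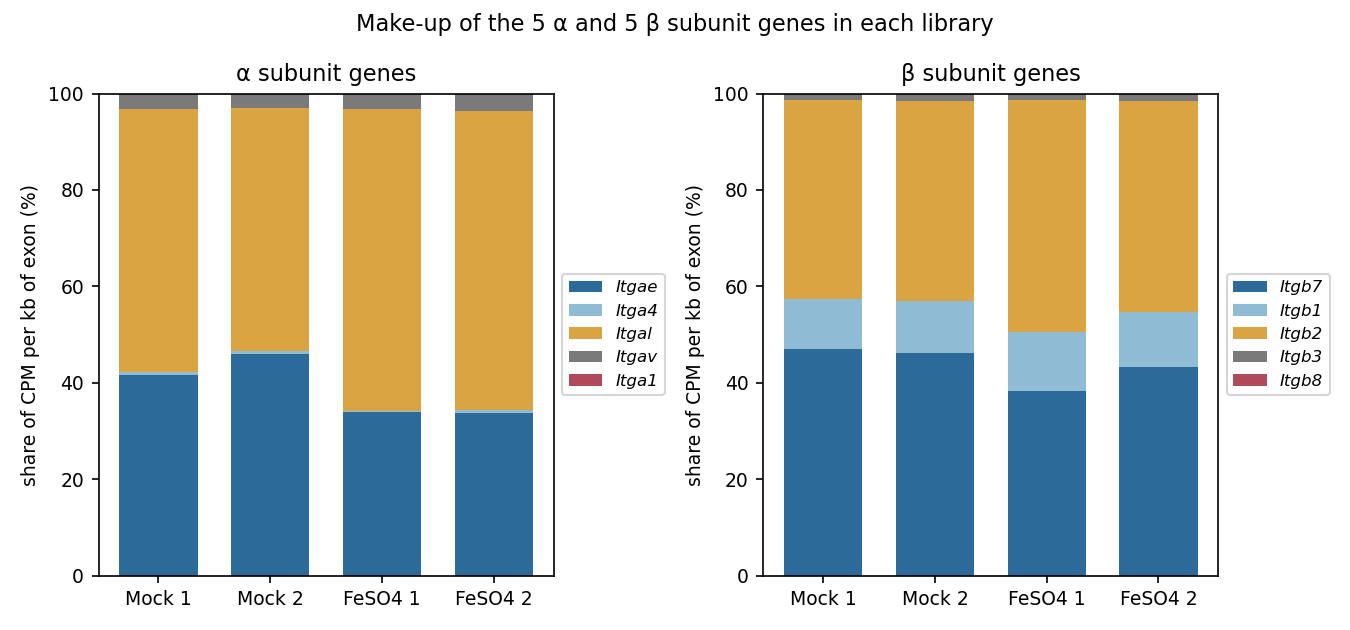
Make-up of the 5 α and the 5 β subunit genes in each library, as the percentage of their summed CPM per kilobase of exon. The Itgae share of the α genes is 41.7 and 46.0% in the Mock libraries and 33.9 and 33.7% in the FeSO4 libraries.

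Within each library, the make-up of the 5 α genes shifted between αE and αL. The Itgae share of their summed CPM/kb was 41.7 and 46.0% in Mock and 33.9 and 33.7% in FeSO4, and the Itgal share was 54.6 and 50.4% in Mock and 62.6 and 62.0% in FeSO4. Neither share overlapped between groups, and since shares add up to 100% a lower Itgae share raises that of Itgal. Among the 5 β genes, the Itgb7 share was 47.0 and 46.1% in Mock and 38.3 and 43.3% in FeSO4, against 41.3 and 41.4% and then 48.2 and 43.7% for Itgb2. With coding length the Itgae share was 33.2 and 37.1% in Mock and 26.5 and 26.1% in FeSO4, lower in size and in the same direction. An exact permutation test of 2 against 2 libraries cannot go below p = 0.33, so these shares were not tested.

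Ratios of the chains that pair were also taken per library. The ratio of Itgae to Itgb7 per kilobase was 0.207 and 0.256 in Mock and 0.228 and 0.18 in FeSO4, so the groups overlapped while both genes fell. Itgal to Itgb2 was 0.309 and 0.312 in Mock and 0.334 and 0.328 in FeSO4, without overlap. Itga4 to Itgb1 was 0.0132 and 0.0147 in Mock and 0.00657 and 0.0132 in FeSO4, and Itgav to Itgb3 was 0.543 and 0.473 in Mock and 0.604 and 0.547 in FeSO4. Of these 4 pairs, the chains of LFA-1 alone had ratios in FeSO4 that lay apart from both Mock ratios by more than the difference within either group.

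The genes with a pattern most like that of Itgae were sought among 7974 genes that averaged 10 CPM or more and carry a symbol that is not a clone or model number, by the Euclidean distance between centred log2 CPM values over the 4 libraries. The nearest was Herc2, a ubiquitin ligase gene (distance 0.0177), at 160 and 195 CPM in Mock, and at 136 and 124 CPM in FeSO4. Next came Ikzf3, which encodes the lymphoid zinc finger factor Aiolos (0.0567), the kinase gene Abl2 (0.0573), Tmem2 (0.0684) and the aquaglyceroporin gene Aqp9 (0.0750). All 5 share with Itgae a highest value in Mock replicate 2 and a lower value in both FeSO4 libraries, and their likeness rests on 4 libraries only.

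Among the 16 other integrin subunit genes, 9 could be tested, 3 fell and 2 rose, against 9.17 and 10.9% of all genes, with a median log2 fold change of -0.155. Itga6, the α chain of laminin receptors and the most counted of the 16, was at 229 and 264 CPM in Mock, and at 171 and 170 CPM in FeSO4. The groups lay far apart, with a log2 fold change of -0.53 ± 0.07 (SE) at an adjusted p of 6.68e-05. Itga3, another laminin receptor chain, had 192 and 170 reads in Mock and 49 and 63 in FeSO4 (log2 fold change -1.48 ± 0.28, SE, adjusted p = 0.00148). Itgb4, which pairs with α6 in epithelium, had 48 and 13 reads in Mock and 1 and 2 in FeSO4, a ratio of pooled levels of 0.0569 with a 95% counting interval of 0.0114 to 0.174. The adjusted p of Itgb4 was 0.00971, but 0.0994 without Mock replicate 1, 0.103 without FeSO4 replicate 1, 0.0648 without FeSO4 replicate 2 and 0.1 with low-count genes kept in the test, and DESeq2 gave none. Mock replicate 1, which held most Itgb4 reads, was also the library with 784 Krt8 and 231 Epcam reads, and their part in the result was not tested.

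The subunits that rose were of low abundance. Itgb5, a further partner of αV, was at 10.7 and 12.1 CPM in Mock, and at 19.8 and 26.8 CPM in FeSO4, a log2 fold change of 1.03 ± 0.15 (SE) at an adjusted p of 0.00011. Itga7, known as a laminin receptor chain of muscle, had 52 and 89 reads in Mock and 125 and 286 in FeSO4. Its FeSO4 libraries differed by more than the Mock libraries did, and its log2 fold change of 1.75 ± 0.35 (SE, adjusted p = 0.00218) was no longer called without FeSO4 replicate 2 (1.09, adjusted p = 0.0531) or with low-count genes kept in the test (adjusted p = 0.104). The myeloid chains Itgam and Itgax had at most 3 reads in any library and Itgad had none. Itgb6 and Itga8 had 6 reads each, all in Mock replicate 1.

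Of 20 genes that switch integrins on or hold them off, 19 could be tested. Among these, 6 fell and 1 rose, against 9.17 and 10.9% of all genes. Their median log2 fold change was -0.127, and 15 of 19 were below 0, against 50.1% of all tested genes. Tln1, which encodes talin, the protein that binds β tails and opens the receptor, had the highest count of the list. It was at 998 and 1075 CPM in Mock, and at 802 and 766 CPM in FeSO4, a log2 fold change of -0.40 ± 0.06 (SE) at an adjusted p of 0.000207. Fermt1, which encodes kindlin-1, a talin partner, was at 54.4 and 57.2 CPM in Mock, and at 36.4 and 36.3 CPM in FeSO4 (log2 fold change -0.62 ± 0.08, SE, adjusted p = 7.21e-05). Both fell with no overlap, where 29.4% of all tested genes were wholly lower in FeSO4. Fermt3, which encodes the kindlin-3 of blood cells and was chosen after its values were seen, was at 400 and 380 CPM in Mock, and at 381 and 376 CPM in FeSO4 (adjusted p = 0.67).

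Genes around Rap1 did not share 1 direction. Rap1a itself rose from 142 and 152 CPM in Mock to 200 and 212 CPM in FeSO4, a log2 fold change of 0.49 ± 0.07 (SE) at an adjusted p of 7.74e-05. Rasgrp2, which encodes the Rap1 exchange factor CalDAG-GEFI, fell from 184 and 183 CPM to 119 and 150 CPM (log2 fold change -0.45 ± 0.09, SE, adjusted p = 0.00145). Its adjusted p was 0.0915 without the filter on low counts, and without FeSO4 replicate 1 its log2 fold change was -0.29 (adjusted p = 0.0338). Rasa3, which encodes a GTPase-activating protein that restrains Rap1, fell as well, from 271 and 283 CPM to 192 and 215 CPM (log2 fold change -0.45 ± 0.07, SE, adjusted p = 0.000223). Rasgrp2 and Rasa3, 1 an activator and 1 an inhibitor of Rap1, thus both fell, and the balance of such genes was not tested. Sipa1, of the same list, was also called lower, with a log2 fold change of -0.298 to -0.191 over the alternatives run. Its call was lost with low-count genes kept in the test (adjusted p = 0.087). It was also lost without Mock replicate 1, FeSO4 replicate 1 or FeSO4 replicate 2 (log2 fold changes of -0.191, -0.257 and -0.202). Rap1b was not called, at 0.0596 to 0.155 over the alternatives run. Cyth1, which encodes cytohesin-1, a binding partner of the β2 tail, fell from 356 and 359 CPM to 294 and 292 CPM (log2 fold change -0.29 ± 0.06, SE, adjusted p = 0.00273).

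Of 20 adaptors and kinases that link integrins to actin, 18 could be tested, 6 fell and 1 rose, against 9.17 and 10.9% of all genes, with a median log2 fold change of -0.121. Actn1, the gene of the actin crosslinker α-actinin-1, was at 69.6 and 74.8 CPM in Mock, and at 46 and 50 CPM in FeSO4, a log2 fold change of -0.59 ± 0.08 (SE) at an adjusted p of 8.63e-05. Flna, which encodes filamin A, a competitor of talin for β tails and the most counted gene of the list, was at 1642 and 1714 CPM in Mock, and at 1463 and 1333 CPM in FeSO4 (log2 fold change -0.26 ± 0.06, SE, adjusted p = 0.00655). Vasp, whose product lengthens actin filaments, had a log2 fold change of -0.25 ± 0.06 (SE) at an adjusted p of 0.00786. Ptk2b, the gene of the kinase PYK2, had one of -0.25 ± 0.06 (SE, adjusted p = 0.0102), and Parvg, of the γ-parvin of blood cells, one of -0.21 ± 0.06 (SE, adjusted p = 0.0271). In all 5 both FeSO4 libraries were below both Mock libraries, which held for 29.4% of all tested genes. These 5 were named because they were called. Crk, an adaptor gene, rose from 44.1 and 46.5 CPM to 53.6 and 57.2 CPM (log2 fold change 0.29 ± 0.08, SE, adjusted p = 0.0201).

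These calls differed in how far they held. Actn1 was called under all alternatives run. Without FeSO4 replicate 2 the adjusted p was 0.118 for Flna, 0.122 for Vasp, 0.089 for Ptk2b, 0.205 for Parvg and 0.158 for Crk. Without FeSO4 replicate 1 it was 0.0511 for Ptk2b and 0.0844 for Parvg, and without Mock replicate 1 it was 0.073 for Parvg and 0.0964 for Crk. Scaled by library size alone, Crk had an adjusted p of 0.0645. Without the filter on low counts, Flna, Vasp, Ptk2b, Parvg and Crk had adjusted p-values of 0.0678, 0.064, 0.0598, 0.0968 and 0.0999.

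**Figure D4:**
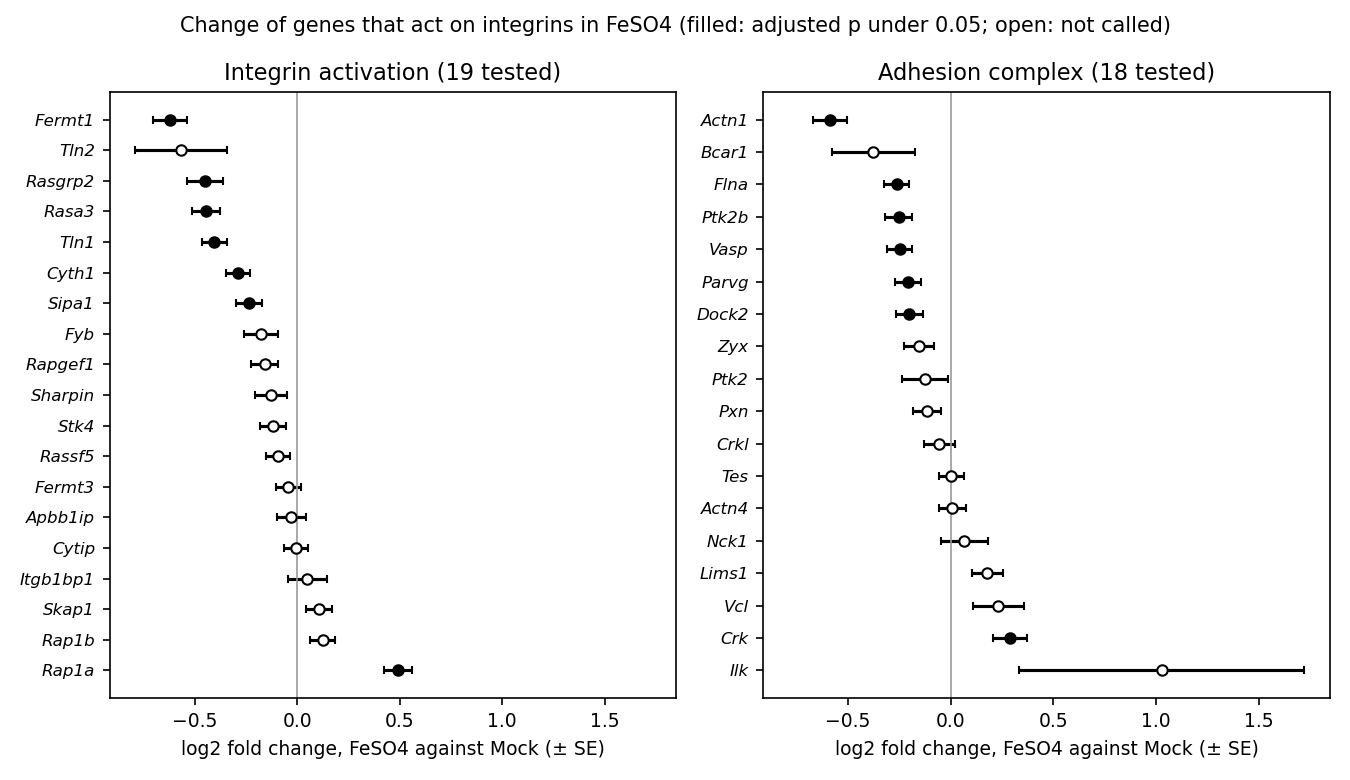
Log2 fold change in FeSO4 against Mock with its SE as the bar, for the tested genes of integrin activation in 1 panel and of the link to actin in the other. Filled points have an adjusted p under 0.05; Rap1a, at 0.49, and Crk, at 0.29, are the filled points above 0.

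Ligand genes were mostly low in these T cells. Of 19 listed, 11 could be tested, 2 fell and none rose, against 9.17 and 10.9% of all genes. At an unadjusted p under 0.05 no others were added, where 15.2% of all genes were lower and 17.1% higher. Those were the basement membrane collagens Col4a2, with 36 and 33 reads in Mock and 0 in both FeSO4 libraries (adjusted p = 0.00132), and Col4a1, with 23 and 13 reads in Mock and 0 in both FeSO4 libraries (adjusted p = 0.00996). No fold is given because the FeSO4 libraries were at 0. DESeq2 gave no adjusted p for either gene and called no ligand gene, and Col4a1 was not called without FeSO4 replicate 1 (adjusted p = 0.136) or FeSO4 replicate 2 (adjusted p = 0.114). With low-count genes kept in the test it was 0.0503 for Col4a2 and 0.112 for Col4a1. The stromal, endothelial and epithelial markers summed to 80.8 and 61.0 CPM in Mock, and to 42.2 and 49.4 CPM in FeSO4, and their part in the collagen result was not tested. Icam1, the main LFA-1 ligand and the most counted of the list, was at 73.9 and 80.8 CPM in Mock, and at 82.9 and 79.6 CPM in FeSO4 (adjusted p = 0.555). Cdh1, which encodes E-cadherin and was chosen after its values were seen, was at 13.2 and 11.7 CPM in Mock, and at 17.4 and 11.5 CPM in FeSO4, overlapping between groups (adjusted p = 0.43). Over 13 alternatives its log2 fold change ranged from -0.114 to 0.488, and it was called in 1 of them, without FeSO4 replicate 2.

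Latent TGF-β, on which αVβ8 acts, was covered by 10 genes, of which 7 could be tested, 2 fell and 1 rose, where 9.17 and 10.9% of all genes did. Lrrc32, the gene of GARP, which holds latent TGF-β on the surface of regulatory T cells, was at 492 and 519 CPM in Mock, and at 335 and 383 CPM in FeSO4. Both FeSO4 libraries were well below both Mock libraries, with a log2 fold change of -0.49 ± 0.07 (SE) at an adjusted p of 9.11e-05. Tgfb3 was at 2.56 and 1.77 CPM in Mock, and at 5.17 and 4.32 CPM in FeSO4 (log2 fold change 1.13 ± 0.27, SE, adjusted p = 0.00678), a call that was lost without Mock replicate 2 (adjusted p = 0.0733) and without the filter on low counts (adjusted p = 0.0667). Ltbp1, a latent TGF-β binding protein gene, had 33 and 21 reads in Mock and 4 in each FeSO4 library (adjusted p = 0.0254). That call was lost without Mock replicate 1 (adjusted p = 0.106), FeSO4 replicate 1 (0.203) or FeSO4 replicate 2 (0.192) and with low-count genes kept in the test (0.108), and DESeq2 gave it no adjusted p. Furin, the protease that processes pro-TGF-β and the most counted gene of the list, was at 503 and 566 CPM in Mock, and at 522 and 467 CPM in FeSO4 (adjusted p = 0.288). Tgfb1, chosen after its values were seen, was at 489 and 460 CPM in Mock, and at 470 and 463 CPM in FeSO4 (adjusted p = 0.816).

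TGF-β receptors, SMADs and RUNX factors, which are known to act on Itgae, were read from 10 genes. All 10 were tested, 2 fell and none rose by the quasi-likelihood test, against 9.17 and 10.9% of all genes. At an unadjusted p under 0.05, 5 were lower and 0 higher, against 15.2 and 17.1% of all genes. DESeq2 and limma-voom each called 2 lower and 0 higher. The shares of all genes were 7.94 and 10.6% for DESeq2 (genes it gave an adjusted p) and 8.69 and 10.6% for limma-voom. Scaled by library size only, Tgfbr2, Smad7 and Skil were called lower as well, where 1810 of all 13732 genes were called lower. Runx1 was at 66.4 and 68.9 CPM in Mock, and at 56 and 55.8 CPM in FeSO4, a log2 fold change of -0.27 ± 0.08 (SE) at an adjusted p of 0.0177. Tgfbr1, the type I TGF-β receptor gene, was at 132 and 149 CPM in Mock, and at 120 and 117 CPM in FeSO4 (log2 fold change -0.25 ± 0.07, SE, adjusted p = 0.0236). In both genes the FeSO4 libraries were below the Mock libraries, which held for 29.4% of all tested genes. With 1 library left out, Runx1 was lost without Mock replicate 2 (adjusted p = 0.0815), FeSO4 replicate 1 (0.0996) and FeSO4 replicate 2 (0.0946), and Tgfbr1 likewise (0.206, 0.0783 and 0.118), with a log2 fold change of -0.15 without Mock replicate 2. With low-count genes kept in the test it was 0.0836 for Runx1 and 0.151 for Tgfbr1. Skil, which encodes the SMAD corepressor SnoN and had the highest single count of the list, in Mock replicate 2, while Cbfb was higher in the other 3 libraries, was at 267 and 310 CPM in Mock, and at 237 and 263 CPM in FeSO4 (log2 fold change -0.21 ± 0.08, SE, adjusted p = 0.0663). Skil was called lower in 6 of 13 alternatives, which were upper-quartile scaling, library size only, at least 10 counts in every library, the replicate block, and leaving out Mock replicate 1 or FeSO4 replicate 2. Runx3 and Smad3, chosen after their values were seen, had log2 fold changes of -0.11 ± 0.06 and -0.02 ± 0.08 (SE, adjusted p = 0.253 and 0.921).

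Markers of cells other than CD4 T cells were read beside these results. Cd8b1 had 304 and 351 reads in Mock and 316 and 361 in FeSO4, and Cd8a 94, 27, 25 and 47 in the same order. Platelet markers, of interest because platelets carry αIIbβ3, summed to 3.08 and 3.35 CPM in Mock, and to 1.52 and 1.08 CPM in FeSO4, with 4 of 8 at 0 in every library and Pf4 at 2, 0, 0 and 0 reads. The most counted platelet marker was Gp1ba, with 77 and 93 reads in Mock and 23 and 18 in FeSO4. Myeloid markers, 10 in all, summed to 7.34 and 2.51 CPM in Mock, and to 1.90 and 2.35 CPM in FeSO4. Pecam1, the most counted of the stromal, endothelial and epithelial markers and also expressed by T cells, had 2129 and 2468 reads in Mock and 1394 and 1754 in FeSO4. B cell markers were led by Ighm, with 6711 and 6666 reads in Mock and 8393 and 10177 in FeSO4 (called higher, adjusted p = 3.75e-06). Gp1ba (adjusted p = 0.00511), Pecam1 (0.0165), Epcam (0.0232) and Krt8 (0.0145) were called lower. They were 1 of 2 platelet markers and 3 of 4 stromal, endothelial and epithelial markers tested, where 9.17% of all genes were called lower. Without Mock replicate 1 the log2 fold change of Krt8 turned from -5.08 to 1.2. That of Epcam went from -1.72 to -0.556, and neither gene was called. By limma-voom neither was called (adjusted p = 0.461 for Krt8 and 0.0909 for Epcam), nor was Krt8 by DESeq2 (0.113). Gp1ba was not called without FeSO4 replicate 2, and Pecam1 was not called without Mock replicate 2 or FeSO4 replicate 1. With low-count genes kept in the test, none of these 4 was called (adjusted p = 0.0517 to 0.291). Erythroid markers were led by Hba-a1 (994, 820, 1284 and 1202 reads) and NK cell markers by Klrd1 (26, 46, 77 and 165 reads). Hba-a1 was the 1 erythroid marker tested, and was called higher. Of 3 NK cell markers tested, Klrd1 and Klrk1 (29, 32, 75 and 83 reads) were called higher and Eomes (38, 44, 42 and 19 reads) was not called. Of all tested genes, 10.9% were called higher. The call of Klrd1 was lost without FeSO4 replicate 2 (adjusted p = 0.0681) and with low-count genes kept in the test (0.0873), as was that of Hba-a1 in the latter case (0.0533). Dendritic cell markers were led by Zbtb46 with at most 208 reads. The part of these cells in the integrin values was not tested.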

How the data were processed

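The authors deposited 1 table of raw counts, not normalized, with a row per Ensembl gene and 1 column per library. Per the labels' processing notes, reads were trimmed with Trim Galore 0.6.7, aligned with STAR 2.7.9a and counted with featureCounts on mm10, whereas the methods name STAR and mm9. The table ends in 5 rows of unassigned reads (15.9 to 17.3% of a library), which were left out. Those rows carry the names that HTSeq-count gives, not those of featureCounts, so the counting program is in doubt. The strand setting and the annotation were not given in the sources used here. By their names, those rows hold ambiguous and multiply aligned reads, so genes with overlapping exons may be undercounted.

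Groups were taken from the labels. Counts were tested with edgeR 4.0.16 in R 4.3.3 (filterByExpr by group, a minimum count of 10, TMM scaling, quasi-likelihood F test with the small-count adjustment, two-sided), and p-values were adjusted by Benjamini-Hochberg across the 13732 genes that passed, which held 99.9% of counts. Called means an adjusted p under 0.05; "rose" and "fell" are used of called genes. CPM values are these counts divided by the TMM-scaled library size. Depth per library was 39747890 and 40859178 (Mock) and 35183187 and 37735336 (FeSO4) reads. Each SD comes from 2 libraries and is itself imprecise.

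Symbols, positions and promoter windows came from RefSeq (GRCm38.p6), and lengths from GENCODE M1. Of 171 list entries, 170 matched, 2 by a synonym. 1 marker gene is not reported here. A promoter window was read for 6 of the 10 genes. The members and gene lists were chosen with earlier results of these data known. Named were the 10 members, of each other list the called genes up to 6 of smallest p and the gene of highest count, the defining and most counted markers, and the 5 genes nearest to Itgae. Genes named outside this rule, such as Rap1b, Sipa1 and Dock2, were chosen after their values were seen. Likeness used log2 CPM with a prior count of 2.

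The test was checked on simulated counts of 13455 genes for FeSO4 against Mock. Of changes of 0.5 on the log2 scale it called 56.2%, of changes of 1 76.9% and of changes of 2 90.6%, with 0 of the wrong sign, and it called 9 unchanged genes. Alternatives were DESeq2 1.42.0, limma-voom (limma 3.58.1), other scalings, filters and thresholds, a replicate block, each library left out, coding length and, added after seeing the data, edgeR's legacy fit. Figures were drawn with matplotlib 3.10.9.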

Additional observations from a re-analysis of the deposited data

How the results depend on the processing

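Of all genes, 1491 rose and 1259 fell. These counts were 524 and 304 without the filter on low counts, 641 and 787 by the thresholds of the study (unadjusted p under 0.05 and a log2 fold change of at least 0.5), applied here to edgeR's p-values in place of DESeq2's, and 789 and 597 at an adjusted p under 0.01. Scaled by library size only, 980 rose and 1810 fell. With each library left out in turn, 893 to 1199 rose and 710 to 1158 fell. Of the called genes, 54.2% rose with TMM, 52.7% with DESeq2's size factors, 48% with upper-quartile scaling and 35.1% where library size alone was used, which moved the median of all genes by -0.00437, -0.019 and -0.065.

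Of the integrin genes, 0 fell without the filter on low counts and 0 by the study's rule. Leaving out each library gave 1 to 3 that fell. DESeq2 called 1 higher, as did the replicate block (Itgal, adjusted p = 0.0335). The log2 fold change of Itgb3 turned to 0.0394 without Mock replicate 2 and 0.0267 without FeSO4 replicate 1, in a range of -0.213 to 0.0394 over the libraries left out. That of Itga1 turned to -0.0158 with library size only, -0.238 with limma-voom, -0.621 without Mock replicate 2 and -2.03 without FeSO4 replicate 1, in a range of -2.03 to 1.28. The causes were not tested.

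Of the other subunits, 1 rose without the filter and 1 to 2 with a library left out. Of the activation genes, 0 rose and 2 fell by the study's rule. Of the adhesion complex genes, 0 rose with library size only, without the filter, by the study's rule and at an adjusted p under 0.01, and 0 to 1 with a library left out. In the same list 1 fell without the filter, 1 by the study's rule and 3 at an adjusted p under 0.01, and 1 to 6 with a library left out. With coding length, Itgae ranked 5 and Itgb1 4 in Mock, and Itgb7 ranked 2 and Itgb2 1.

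The methods describe the libraries as pairs from independent experiments, but neither they nor the labels say that a replicate number marks an experiment. The deviations of libraries with the same number had a correlation across genes of 0.0293, and of 0.22 over 8522 genes of at least 10 CPM (named or not), which are not independent. With the replicate block 1847 genes rose and 1580 fell, and 8 activation genes fell. With 0 to 15 reads per library, Itga1 and Itgb8 were given no direction.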
